A study of Mus musculus with 2 samples.

Results

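Conventional alpha-beta T cells without Foxp3 were described in CD45+ cells sorted from mouse skin, before and after exposure to diphenylcyclopropenone (DPCP), a contact sensitizer. The control cells came from skin at day 0 and the DPCP cells from skin at day 2 of the challenge, and both were pooled in 1 droplet library with cell-multiplexing tags. Full-thickness skin was digested with an enzyme blend and CD45+ cells, the leukocytes, were sorted by flow cytometry, per the labels' protocols. There was 1 tagged sample per condition, and the strain, age and number of mice behind each tag are not given in the sources used here. No test between conditions was therefore possible, and the 95% intervals below stand for the error of counting UMIs or cells alone, not for the spread between animals.

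The cells were chosen by their own RNA. Barcodes with fewer than 200 genes, or with over 10% of their UMIs (unique molecular identifiers, each standing for 1 captured RNA molecule) from mitochondrial genes, were dropped. Among kept barcodes, a member held at least 1 UMI of Trac, the constant region of the T cell receptor alpha chain, and at least 1 UMI of Cd3e, Cd3d or Cd3g, the chains that carry the receptor's signal. It held no UMI of Foxp3, the regulatory T cell factor, none of Trdc, Trdv4 or Tcrg-V5 from the gamma-delta receptor, and fewer than 20 UMIs of S100a8 and S100a9, the abundant neutrophil genes. This left 111 of 12558 kept cells, from 14146 barcodes in all. Of the 111 cells, 64 were control and 47 were DPCP. These genes define the cells, so their levels are a description and not a result.

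Alpha-beta T cells recognise peptides held by MHC molecules. Those with the CD8 coreceptor read MHC class I and can kill with granzymes and perforin, and those with CD4 read MHC class II and act mostly through cytokines. Skin keeps a resident pool of such cells, many of which carry the integrin CD103 (Itgae) that binds E-cadherin on keratinocytes, and contact sensitizers are known to bring further activated T cells into the skin.

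The largest single loss of candidates was at the step on Trdc in control and at the step on CD3 in DPCP. In control, 190 kept cells held Trac, 154 of them also held CD3, 131 had no Foxp3, 65 had no Trdc and 64 passed the S100 limit. In DPCP the same steps left 223, 151, 119, 66 and 47 cells, so that the S100 limit took out 1 control cell and 19 DPCP cells. At the edge of the rule, 22 control and 10 DPCP members held a single Trac UMI, and 13 and 5 held neither Trbc1 nor Trbc2, the beta-chain constant regions. Just outside it, 98 control and 56 DPCP cells had at least 2 CD3 UMIs and no Trac. The highest S100a8 and S100a9 sum inside the limit was 17 in control and 19 in DPCP, and the lowest outside it was 91 and 20.

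Members made up 1.29% of kept control cells (exact Clopper-Pearson interval 0.993 to 1.64%) and 0.619% of kept DPCP cells (0.455 to 0.823%). The direction turned when cells above the S100 limit were left out of the denominator: 1.33% of 4823 control cells (1.02 to 1.69%) and 1.82% of 2584 DPCP cells (1.34 to 2.41%). The median kept cell held 5 S100a8 and S100a9 UMIs in control and 105.5 in DPCP, so a share of all kept cells also depends on how many cells carried neutrophil RNA.

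A member held 1390 to 29839 UMIs in control (median 8308.5) and 1326 to 38259 in DPCP (median 10718), 754435 and 614697 in sum. Medians of 3251 and 3523 genes per cell and of 2.74% and 2.31% mitochondrial UMIs were close between conditions. No barcode was shared by the conditions. The tags were less clean in DPCP: the cell's own tag made up at least 85.4% of its UMIs from both tags in every control member, and 49.6 to 94.7% in DPCP members. Of the DPCP members 15 reached 80%, against all 64 control members. With those 15 DPCP cells in place of the 47, 38 of the 61 genes followed over the alternatives kept a value within their first counting interval, 22 moved and 1 turned. For 10 of the 61 the interval then held 1: Klrc1 (log2 ratio 1.26), Il2ra (1.11), Dusp10 (1.01), Rundc3b (0.19), Crem (0.35), Pdcd1 (1.23), Phf11b (-0.61), Cxcr3 (-0.63), Irgm1 (-0.90) and Slamf1 (-0.30).

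A T cell gene outside the rule was common, and part of the cells carried RNA of antigen-presenting cells as well. Cd28, a costimulatory receptor of conventional T cells that the rule did not use, was found in 37 of 64 control and 39 of 47 DPCP members. At the weakest, 10 control and 3 DPCP members held 1 Trac UMI, 1 CD3 UMI and no Trbc1 or Trbc2. Of the gamma-delta genes outside the rule, Tcrg-V6 was at 0, while a gamma constant region was found in 14 control and 12 DPCP members. Of the 6 B cell markers, Cd79a and Ms4a1 were at 0 in both conditions, 1 was found in control, Ighm, with 78 UMIs in 27 of 64 members, and 3 in DPCP, Ighm, Igkc and Cd79b, with 55 UMIs in 17 of 47. Krt5 of keratinocytes and Col1a1 of fibroblasts were at 0. Lyz2, a lysozyme of macrophages and monocytes, reached 20 UMIs in 22 of 64 control members (34.4%) and in 8 of 47 DPCP members (17%). Cd74, the MHC class II chaperone, reached 50 UMIs in 17 and 4 members. The 8 macrophage and monocyte markers together stood at 4431 CPM (UMIs per 1000000 UMIs of the same cells) in control and 2307 in DPCP, and the 8 dendritic cell markers at 6388 and 2923.

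A subset with little of this RNA was therefore formed after these values were seen: members with fewer than 20 Lyz2 UMIs and fewer than 50 Cd74 UMIs, called low-myeloid cells here. It held 77 cells, 42 control and 35 DPCP, in which the macrophage list stood at 470 and 511 CPM and the dendritic cell list at 705 and 522. Neutrophil RNA was not lowered by this split. The 7 neutrophil markers stood at 638 and 1161 CPM in the subset, with up to 17 and 116 UMIs in 1 cell. In the members outside the subset they stood at 640 and 710 CPM. The 22 control and 12 DPCP members outside it were larger, with medians of 19524.5 and 19973 UMIs against 7241 and 9677. In control these outside members held a median of 1 Trac UMI and 0.5 Trbc1 and Trbc2 UMIs. At least 3 T cell receptor and CD3 UMIs were held by 54 of 64 control and 44 of 47 DPCP members. In low-myeloid cells it was 41 of 42 and 35 of 35. The members with the weakest T cell evidence were thus mostly outside the subset, and whether they are T cells was not tested. Lyz2 split cleanly, with 1 DPCP member and no control member between 15 and 29 UMIs. Genes below are given over all members, and those the results turn on also over low-myeloid cells. The part of other cells' RNA in the remaining differences was not tested.

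**Figure D1:**
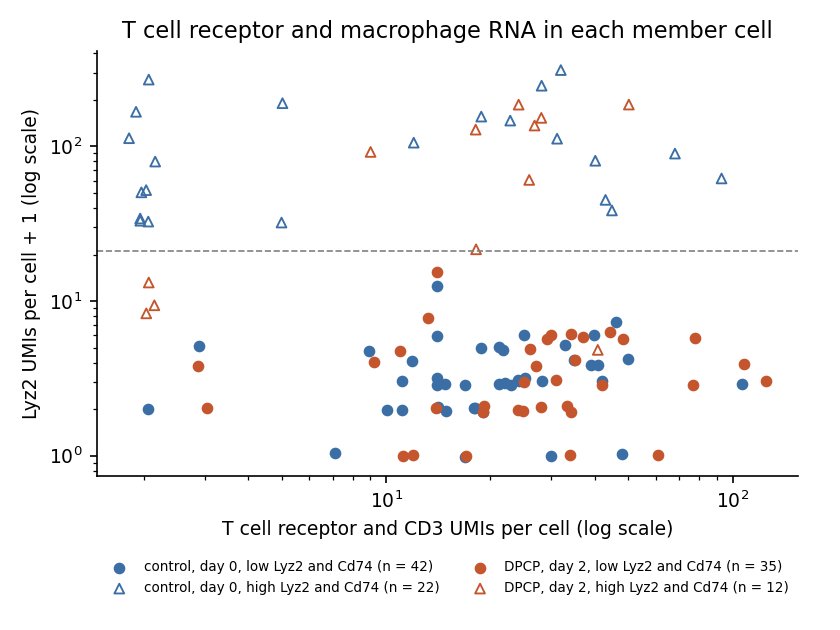
UMIs of T cell receptor and CD3 genes (x axis, log scale) and of Lyz2 plus 1 (y axis, log scale) in each of the 111 members, with a small random shift so that equal values can be seen. Filled circles are the 42 control and 35 DPCP low-myeloid cells, open triangles the other 22 and 12, and the dashed line marks 20 Lyz2 UMIs: the points fall into a lower and an upper band with few cells between them.

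The T cell receptor and CD3 genes themselves ranged widely from cell to cell. Their sum had a low of 2, a median of 19 and a high of 106 UMIs in control, and 2, 26 and 125 in DPCP, so the conditions overlapped over nearly their whole range. None of the 7 genes of this list was called different. A gene was called higher or lower here when its ratio of CPM, DPCP over control, was at least 2 or at most 0.5 with an interval that excluded 1, among genes with at least 50 UMIs in sum. Over all members 5017 genes were measured this way, of which 204 (4.07%) were called higher and 253 (5.04%) lower. Over low-myeloid cells 3006 genes were measured, with 101 (3.36%) higher and 73 (2.43%) lower. These shares are the background for the counts of each gene list below. The shared calls were 68 genes higher, which is 33.3% of the first list and 67.3% of the second, and 29 lower, which is 11.5% and 39.7%. The median log2 ratio of all genes was 0.04 over members and 0.01 over low-myeloid cells.

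Trbc1 and Trbc2 were found together in 25 of 64 control and 29 of 47 DPCP members, and Trbc2 alone in 26 and 11. A T cell uses either constant region for its receptor, and the cause of their co-detection was not tested.

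Coreceptors were found in more DPCP than control members. A Cd4 UMI without Cd8a or Cd8b1 was seen in 14 control members (21.9%, 12.5 to 34.0%) and 19 DPCP members (40.4%, 26.4 to 55.7%). Cd8a or Cd8b1 without Cd4 was seen in 12 (18.8%, 10.1 to 30.5%) and 14 (29.8%, 17.3 to 44.9%). Both were seen in 3 and 1 cells, and neither in 35 (54.7%, 41.7 to 67.2%) and 13 (27.7%, 15.6 to 42.6%). The intervals of the neither class overlapped only from 41.7 to 42.6%, while those of the Cd4 and of the Cd8 class overlapped. All members with only 2 T cell receptor and CD3 UMIs, the weakest T cell evidence, were in the neither class.

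Cd8a stood at 68.9 CPM in control and 148 in DPCP (ratio 2.15, 1.51 to 3.08), and its partner chain Cd8b1 at 55.7 and 116 (2.07, 1.4 to 3.12). Cd4 stood at 58.3 and 76.5 CPM (1.31, 0.850 to 2.02) and was not called. In low-myeloid cells the classes were 11 Cd4, 11 Cd8, 1 both and 19 neither of 42 control cells, and 14, 14, 0 and 7 of 35 DPCP cells, so the neither class made up 45.2% and 20%. These shares fell with every cell thinned to 1000 UMIs by 1 random draw: Cd4 cells were 3.13% and 6.38% and Cd8 cells 12.5% and 14.9%. The neither class was then 84.4% (73.1 to 92.2%) in control and 78.7% (64.3 to 89.3%) in DPCP, with intervals that overlapped widely. At 2000 UMIs, also in 1 draw, the direction of the Cd4 class turned, with 14.3% in control and 13.0% in DPCP. A separate draw to 1000 UMIs in low-myeloid cells gave 5 Cd4 and 10 Cd8 of 35 DPCP cells. The draw over all 47 DPCP members, which include those 35, gave 3 and 7. The neither class of low-myeloid cells was then 73.8% in control and 57.1% in DPCP. The spread over repeated draws was not measured, so no direction is drawn from the thinned shares. For background, 98.8% of control and 97.4% of DPCP cells with Trdv4 or Tcrg-V5 had neither coreceptor. Kept cells without Trac or CD3 UMIs, with medians of 8466 and 4378 UMIs per cell against 8308.5 and 10718 in members, held a Cd4 UMI in 1.05% and 0.664% of cells. With under 20 cells in every Cd4 and Cd8 class, gene levels were not compared within Cd8 cells. Those within Cd4 cells are given only among the alternatives below, although they too are under this limit.

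**Figure D2:**
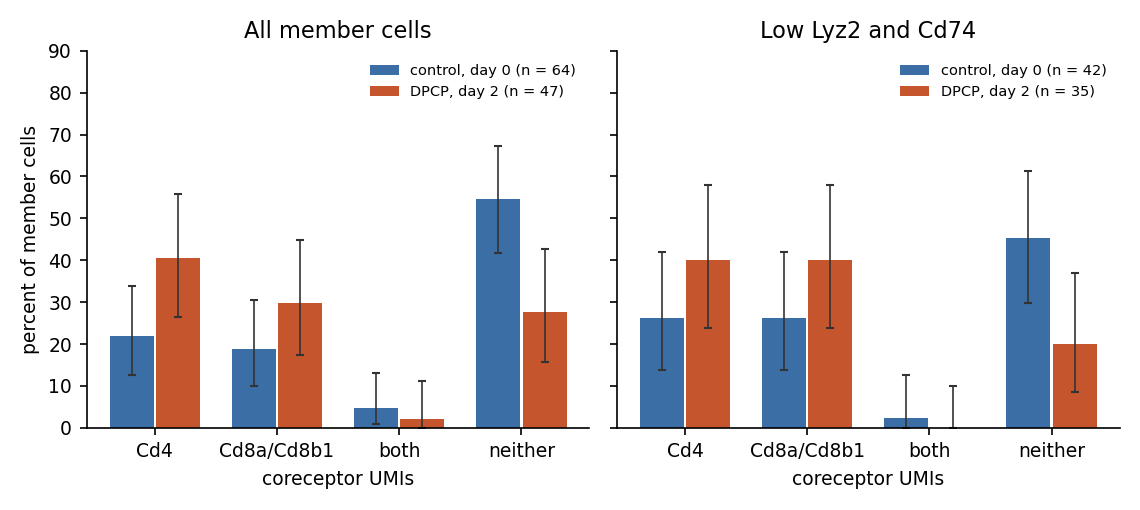
Percent of cells (y axis, from 0) by the coreceptor UMIs they held (x axis), for all 64 control and 47 DPCP members on the left and for low-myeloid cells on the right, with exact 95% binomial intervals as bars. The share with neither coreceptor was 54.7% in control and 27.7% in DPCP over all members.

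Genes of cytotoxic effector cells made up the list with the highest median. Of 14 measured genes 8 were called higher and 3 lower, with a median log2 ratio of 1.59 beside 0.04 for all genes. In low-myeloid cells it was 8 higher and 2 lower of 13, with a median of 2.15. The highest-ranked members were granzymes, the serine proteases that cytotoxic granules deliver into a target cell, and they did not move together.

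Gzmb, on the minus strand at chr14:56258838-56262260 (GENCODE M21, GRCm38), was at 0 in 60 of 64 control members, with 6 UMIs in the highest cell. In DPCP it was at 0 in 32 of 47 members, found in 15, and reached 56 UMIs in the highest cell. Most cells of both conditions were thus at 0, and the DPCP cells alone had a tail of high values. The sums were 9 UMIs, 11.9 CPM (exact Poisson interval 5.45 to 22.6), and 200 UMIs, 325 CPM (282 to 374), a ratio of 27.3 (14.1 to 60.5). In low-myeloid cells 1 UMI stood against 195. At least 3 Gzmb UMIs were held by 1 of 64 control and 11 of 47 DPCP members (23.4%, 12.3 to 38.0%), 6 of them with a Cd8 UMI and 2 with a Cd4 UMI. After thinning to 1000 UMIs, 1.56% and 19.1% of members held Gzmb, beside 0.94% and 0.754% of unthinned kept cells without Trac or CD3 UMIs.

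Gzma, at chr13:113093825-113100981 on the minus strand, was held by 1 control member with 1 UMI and by 7 DPCP members with 409 UMIs, of which 167 and 142 lay in 2 cells. The level was 1.33 against 665 CPM, and with a single control UMI the ratio of 502 has an interval of 89.6 to 1.99e+04. Gzma and Gzmb occurred together in 6 DPCP members and in no control member (0 of 64, an exact upper limit of 5.6%). Of the 6 DPCP members with at least 3 Gzma UMIs, 3 held a Cd8 UMI and 2 held Ncr1, a receptor of natural killer cells. The natural killer cell list, which includes Gzma, stood at 347 CPM in control and 1659 in DPCP low-myeloid cells, with all 7 of its genes found. It had 118 and 613 UMIs there, and the 167 and 142 Gzma UMIs of the 2 richest cells are among the 613. Its level is thus not separate from that of Gzma, and the part of natural killer cells in the result was not tested.

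Gzmc, at chr14:56231441-56234656 on the minus strand and 24181 bases from Gzmb, went the other way. It was held by 6 control members with 339 UMIs, 236 of them in 1 cell, and by 1 DPCP member with 1 UMI, and all 6 control cells had no coreceptor UMI. The ratio was 0.00362 (9.14e-05 to 0.0203), and 95 UMIs against 1 remained in low-myeloid cells. Cells with Trdv4 or Tcrg-V5, chains used by epidermal gamma-delta T cells, also had less Gzmc in DPCP, with 278 UMIs (146 CPM) against 34 (22.4 CPM) and a ratio of 0.154, while Gzmb had 6 UMIs there against 16 and Gzma 1 against 19.

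The promoters of these 3 granzyme genes and of Il2ra are shown because neighbouring granzymes differed in direction and Il2ra was among the higher activation genes. Each is 300 bases from RefSeq (GRCm38.p6), 250 before and 50 after the annotated start, read 5′ to 3′ on the gene's strand. Capitals mark matches, on either strand, to the NF-kappaB motif GGGANNNNCC, the AP-1 motif TGANTCA, the interferon response motif GAAANNGAAA or the T-box motif TCACAC.
Gzma (chr13:113100932-113101231, minus strand): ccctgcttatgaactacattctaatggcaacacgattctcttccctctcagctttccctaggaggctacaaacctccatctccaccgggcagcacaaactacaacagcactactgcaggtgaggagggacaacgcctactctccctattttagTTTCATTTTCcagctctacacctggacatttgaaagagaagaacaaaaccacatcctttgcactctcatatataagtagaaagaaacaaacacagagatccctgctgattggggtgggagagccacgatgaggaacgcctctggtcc
Gzmb (chr14:56262285-56262584, minus strand): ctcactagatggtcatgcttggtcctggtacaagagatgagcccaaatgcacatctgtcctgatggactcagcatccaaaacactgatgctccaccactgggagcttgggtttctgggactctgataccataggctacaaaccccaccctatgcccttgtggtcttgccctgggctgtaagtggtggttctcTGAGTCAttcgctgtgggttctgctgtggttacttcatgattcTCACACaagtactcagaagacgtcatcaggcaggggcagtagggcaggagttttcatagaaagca
Gzmc (chr14:56234608-56234907, minus strand): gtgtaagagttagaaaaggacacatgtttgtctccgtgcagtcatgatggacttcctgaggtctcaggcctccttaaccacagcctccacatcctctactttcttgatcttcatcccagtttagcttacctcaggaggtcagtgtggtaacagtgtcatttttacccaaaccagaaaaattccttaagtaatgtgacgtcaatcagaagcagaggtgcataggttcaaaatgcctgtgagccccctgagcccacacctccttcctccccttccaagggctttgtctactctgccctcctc
Il2ra (chr2:11642542-11642841, plus strand): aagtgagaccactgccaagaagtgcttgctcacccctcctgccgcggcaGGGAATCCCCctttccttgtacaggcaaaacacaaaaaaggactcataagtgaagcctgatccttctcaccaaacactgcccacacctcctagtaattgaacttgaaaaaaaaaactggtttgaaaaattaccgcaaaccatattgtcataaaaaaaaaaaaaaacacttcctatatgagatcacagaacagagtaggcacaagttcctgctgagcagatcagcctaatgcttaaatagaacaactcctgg

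The Gzmb window held 1 AP-1 and 1 T-box match, Gzma held 1 interferon response match, Il2ra held 1 NF-kappaB match, and Gzmc held none of the 4. Of all 32851 windows of this length, 20.7% held the NF-kappaB motif, 7.81% AP-1, 3.44% the interferon response motif and 14.5% the T-box motif. A match is a description of the letters and not a binding site. In all, 32 of 43 genes looked up had a window.

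Other genes of killer cells were higher as well. Ccl5, a chemokine that effector T cells store, was found in 14 members of each condition, with 95 UMIs in control (22 in the highest cell) and 401 in DPCP (109 in the highest), a ratio of 5.18 (4.13 to 6.55). The number of cells was thus the same, out of 64 control and 47 DPCP members, and at least 3 UMIs were held by 9 and 8 cells. Few cells held most of the DPCP UMIs, the richest with 109, 104 and 92, against 22 and 19 in the richest control cells. In DPCP, 268 of the Ccl5 UMIs lay in Cd8 cells, 133 in cells with neither coreceptor and 0 in Cd4 cells. Gzmb was spread likewise, with 145 UMIs in Cd8 cells, 42 in cells with neither and 13 in Cd4 cells. Foxp3 cells, 21 in control and 25 in DPCP, held 0 and 7 Ccl5 UMIs, and gamma-delta cells 98 and 61. Gzmb was called higher in Foxp3 cells as well, where 2 genes of the cytotoxic list were measured.

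Prf1, the pore-forming perforin, had 8 and 56 UMIs (ratio 8.59, 4.07 to 20.9), with 29 of the 56 in 1 cell. Klrd1 and Klrc1, the 2 chains of the CD94-NKG2A inhibitory receptor, had 48 and 163 UMIs (4.17, 3.0 to 5.88) and 10 and 65 UMIs (7.98, 4.07 to 17.4). Klrk1, the activating receptor NKG2D, was lower with 109 and 40 UMIs (0.450, 0.305 to 0.653), and lower still by ratio in low-myeloid cells at 0.397. Xcl1, a chemokine that attracts cross-presenting dendritic cells, had 52 and 14 UMIs (0.330), but 22 and 14 in low-myeloid cells (0.586, 0.277 to 1.20), where it was not called. Ccl4 and Ccl3, chemokines that many myeloid cells make, were higher at ratios of 4.13 and 2.18. Their level in all other kept cells went from 59.1 to 1644 CPM for Ccl4 and from 34.0 to 804 CPM for Ccl3, above the 181 and 78.1 CPM of DPCP members, and the part of free RNA in this was not tested.

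**Figure D3:**
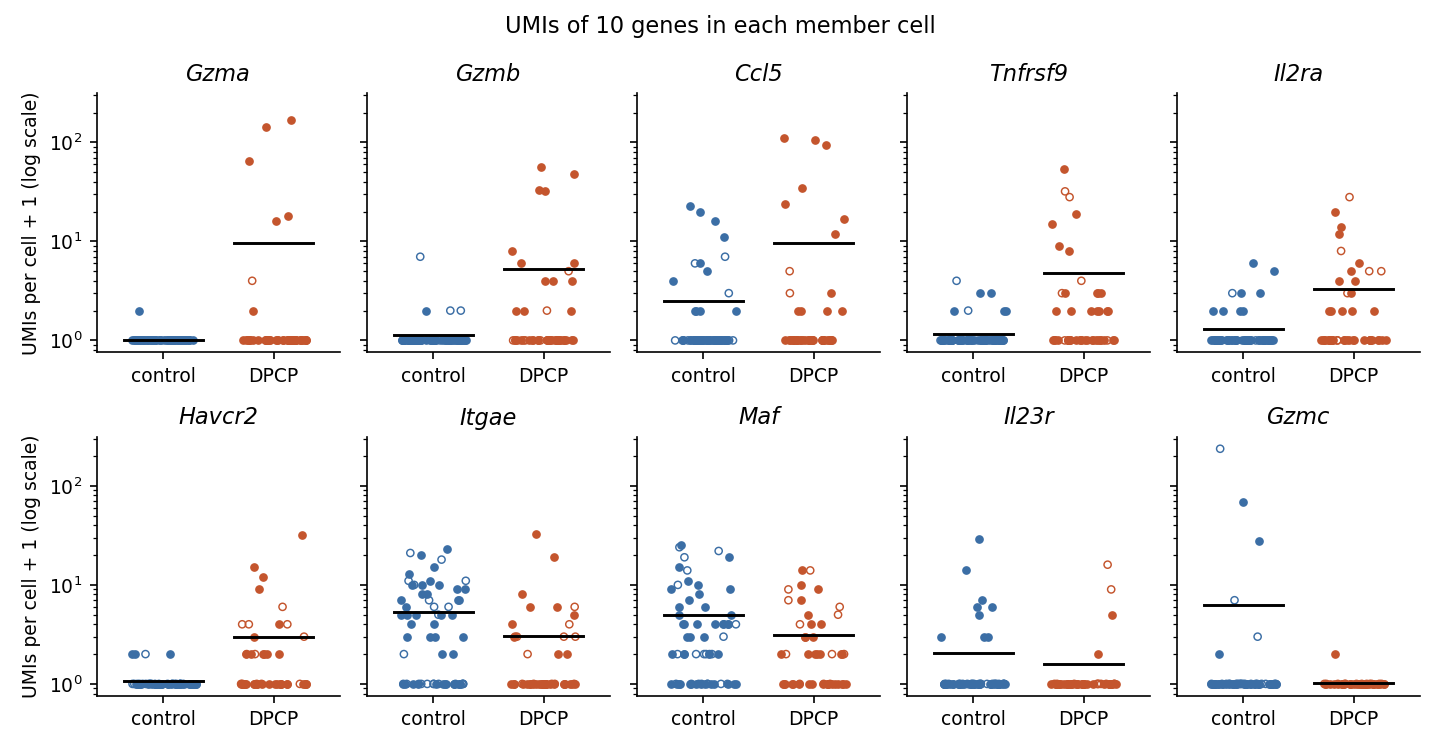
UMIs plus 1 of 10 genes (y axis, log scale) in each of the 64 control and 47 DPCP members, with low-myeloid cells filled, the others open, the horizontal position within a condition random and the mean as a line. Gzma, Gzmb, Ccl5, Tnfrsf9, Il2ra and Havcr2 have high DPCP cells above the control range, whereas Gzmc, Itgae and Il23r have more cells with UMIs in control.

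Early activation genes were higher in DPCP. Of 16 measured genes 8 were called higher and none lower, with a median log2 ratio of 1.0, and in low-myeloid cells 6 of 13 with a median of 0.87. Il2ra, the alpha chain of the interleukin-2 receptor that T cells add after activation, had 19 UMIs in 9 control members and 109 in 18 DPCP members, a ratio of 7.04 (4.30 to 12.1), and 3.52 in low-myeloid cells. Tnfrsf9, the costimulatory receptor 4-1BB, had 11 UMIs in 7 control members, with 3 in the highest cell, and 178 in 20 DPCP members, with 53 in the highest. Its ratio was 19.9 (10.8 to 40.5), and 15.1 in low-myeloid cells. Tnfrsf4 (OX40) had 18 and 60 UMIs (4.09), Tnfrsf18 (GITR) 44 and 84 (2.34), Dusp2, a phosphatase of activated lymphocytes, 23 and 66 (3.52), and Batf, an AP-1 family factor, 28 and 52 (2.28).

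The calls were not even across the list, and without the cell richest in each gene 4 genes were called. Egr3 had 18 and 44 UMIs with 33 of the 44 in 1 cell, and Egr1 41 and 68. Icos, a costimulatory receptor, was abundant in both conditions with 184 and 280 UMIs (1.87, 1.55 to 2.26) and was not called, nor was Cd69, an early activation and residency marker, with 61 and 67 UMIs (1.35, 0.939 to 1.94). With only the 15 DPCP members whose own tag reached 80%, 1 gene of the list was called, and the log2 ratio was 4.67 for Tnfrsf9 and 1.11 for Il2ra, the latter with an interval that held 1. Foxp3 cells had 16 and 240 Tnfrsf9 UMIs (6.84) and 56 and 453 Il2ra UMIs (3.69), and gamma-delta cells 195 and 226 (1.46) and 76 and 172 (2.85). The difference between these populations was not tested.

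Inhibitory receptors were higher by 3 of 7 measured genes over all members and by 3 of 5 over low-myeloid cells, with none lower. Havcr2 (TIM-3), a receptor of activated type 1 T cells and of myeloid cells, had 4 UMIs in 4 control members, never over 1 per cell. It had 93 UMIs in 19 DPCP members with up to 31 per cell, a ratio of 28.5 (10.8 to 107), and 23.0 in low-myeloid cells. Its level in other kept cells was 13.7 and 77.2 CPM, below the 151 CPM of DPCP members. Ctla4 had 22 and 89 UMIs (4.97, 3.09 to 8.32) and Pdcd1 (PD-1) 16 and 44 (3.38, 1.87 to 6.41). Tox, a factor of persistently stimulated T cells, was abundant in both conditions with 383 and 398 UMIs (1.28). Ctla4 was called higher in Foxp3 cells too. In gamma-delta cells Havcr2 and Tigit were called higher and Lag3 lower.

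Il2ra, Ctla4 and Tnfrsf18 are shared with regulatory T cells, in which a Foxp3 UMI can be missed at this depth. All 3 genes together were found in 3 control and 9 DPCP members. The regulatory T cell list stood at 622 and 992 CPM with Foxp3 at 0 by the rule. These 3 genes are part of that list, so its level is not separate from theirs. The part of regulatory T cells without a Foxp3 UMI in the result was not tested.

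By the rule on the 15 highest and 15 lowest ratios, the higher genes were Fabp5, Havcr2, Gzmb, Tnfrsf9, Il12rb2, Prf1, Serpinb9, Klrc1, Il2ra, Serpinb6b, Lig1, Prdm1, Dusp10, Rundc3b and Ccl5. All 15 ratios were above 1 in low-myeloid cells too, and 14 passed the same ratio and interval there, without the minimum of 50 UMIs. The exception was Fabp5, a fatty acid-binding protein, with 829 DPCP UMIs of which 561 (67.7%) lay in 1 cell, and with 3 and 12 UMIs in low-myeloid cells. Il12rb2, a chain of the interleukin-12 receptor, had 12 and 85 UMIs (8.69, 4.73 to 17.5). Serpinb9, an inhibitor of granzyme B that protects cells from their own protease, had 7 and 46 (8.07, 3.62 to 21.2). Lig1, a DNA ligase of replication, had 10 and 50 (6.14), and Dusp10, a phosphatase of stress-activated kinases, 17 and 75 (5.41).

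The 15 lower genes were Rsad2, Hist1h2ap, Clnk, Ifi211, Parl, Ifi213, Ifi204, Abi2, Isg15, Ifi206, Phf11b, Phlda1, Scmh1, Mgat1 and Xcl1. In low-myeloid cells 13 of the 15 ratios were still below 1, and 5 of the genes, Hist1h2ap, Clnk, Parl, Abi2 and Phf11b, passed the same ratio and interval without the minimum of 50 UMIs. Hist1h2ap, a replication-dependent histone, had 241 and 30 UMIs with 168 of the 241 in 1 cell, and 237 and 10 in low-myeloid cells (0.0389). Rsad2, an interferon-induced antiviral enzyme, had 80 and 2 with 61 of the 80 in 1 cell, and 2 and 2 in low-myeloid cells. Abi2, a regulator of actin assembly, was spread more evenly, with 71 UMIs in 33 control members and 14 in 10 DPCP members (0.242, 0.126 to 0.433), and 0.460 in low-myeloid cells. Among all genes that met the other points of the rule, 112 of 174 higher genes but 61 of 237 lower genes had a level in members at or above that of the other kept cells.

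**Figure D4:**
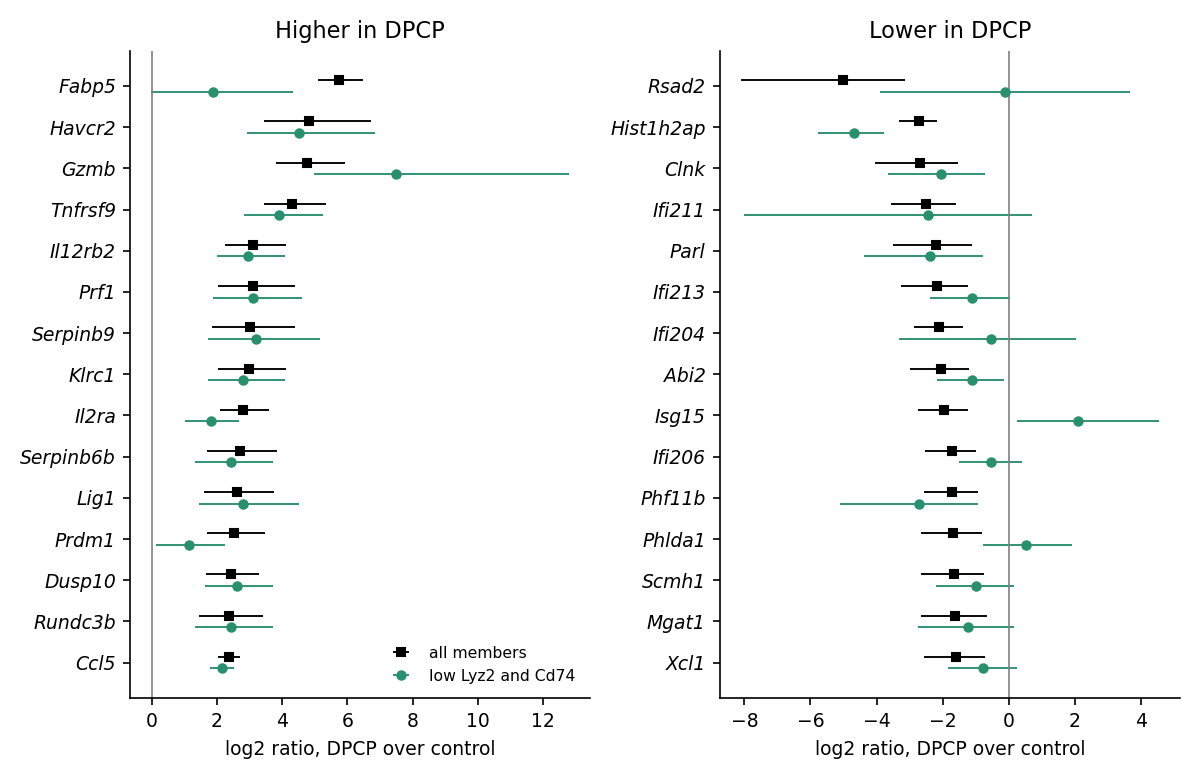
Log2 ratio of CPM, DPCP over control (x axis), with 95% counting intervals, of the 15 highest genes on the left and the 15 lowest on the right, over all members (black squares) and over low-myeloid cells (green circles). On the left the 2 sets of cells give values on the same side of 0, while on the right Isg15 and Phlda1 lie on opposite sides.

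Genes of tissue-resident memory split. Of 11 measured genes 3 were called higher and 1 lower, and in low-myeloid cells 2 higher and 1 lower of 10. Itgae, the CD103 integrin chain at chr11:73090583-73147446 on the plus strand, was the lower gene in both. It was found in 39 of 64 control members with a median of 2.5 UMIs and in 17 of 47 DPCP members with a median of 0, although the highest cell, with 32 UMIs, was a DPCP cell. The sums were 280 UMIs (371 CPM, 329 to 417) and 95 UMIs (155 CPM, 125 to 189), a ratio of 0.416 (0.326 to 0.527), and 0.372 in low-myeloid cells. At least 3 Itgae UMIs were held by 32 control members (50%, 37.2 to 62.8%) and 9 DPCP members (19.1%, 9.15 to 33.3%), and 18 and 2 of these had no coreceptor UMI. After thinning to 1000 UMIs, Itgae was found in 26.6% and 14.9% of members. Unthinned kept cells without Trac or CD3 UMIs held it in 3.62% and 4.61% of cells, so the depths are not alike. In gamma-delta cells it stood at 513 and 350 CPM (0.683), and in Foxp3 cells at 97 and 137 UMIs (0.644).

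Prdm1 (Blimp-1), a factor of effector and resident T cells, was higher with 14 and 66 UMIs (5.79, 3.22 to 11.2), but 2.23 in low-myeloid cells. Crem, a cAMP-responsive factor, had 35 and 61 UMIs (2.14), and Vps37b, a sorting protein, 75 and 127 (2.08). Cxcr6, a chemokine receptor of skin-resident T cells, was found at 216 and 215 CPM (0.994, 0.784 to 1.26), and its ratio in low-myeloid cells was 0.725 (0.556 to 0.945), so it was not called in either.

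The type 17 list was lower. Of 7 measured genes 3 were called lower and none higher, with a median log2 ratio of -0.96, and in low-myeloid cells 4 of 5 with a median of -1.67. Il1r1, the interleukin-1 receptor, had 52 UMIs in 9 control members and 12 in 3 DPCP members (0.283, 0.138 to 0.538), with 30 of the 52 in 1 cell. Il23r, the interleukin-23 receptor, had 67 UMIs in 9 control members and 28 in 4 DPCP members (0.513, 0.318 to 0.808), just short of the threshold. In low-myeloid cells all 67 control UMIs stayed and 5 DPCP UMIs did, a ratio of 0.0687 (0.0216 to 0.169). The lost UMIs lay in DPCP cells with 15 and 8 Il23r UMIs, left out for 131 and 147 Lyz2 UMIs. Those cells held 27 and 28 T cell receptor and CD3 UMIs, so the lower ratio rests on their removal. By cells, Il23r was found in 14.1% of control members (6.64 to 25.0%) and 8.51% of DPCP members (2.37 to 20.4%), with overlapping intervals. Of the 9 control cells with Il23r, 8 also held Il1r1. Without the cell richest in each gene, 1 gene of the list was called over all members.

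Maf, a factor of type 17 and regulatory T cells and also of macrophages, was broad, with 252 UMIs in 42 control members and 101 in 26 DPCP members (0.492, 0.387 to 0.622), and 0.353 in low-myeloid cells. Ramp1, a subunit of the receptor for the neuropeptide CGRP, had 81 and 22 UMIs (0.333). Rora, a nuclear receptor of the list, did not follow, with 251 and 246 UMIs (1.20, 1.0 to 1.44). The cytokine itself was nearly absent: Il17a had 1 and 0 UMIs and Il17f 3 and 0.

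In control, 32 of the Il23r UMIs lay in Cd4 cells, 15 in Cd8 cells and 20 in cells with neither coreceptor, 3 cells in each class. Of the 67 UMIs 28 lay in 1 Cd4 cell, and in DPCP 15 of the 28 lay in 1 cell. Zbtb16 (PLZF), a factor of unconventional T cells, was found in 5 of the 9 control and 4 of the 4 DPCP cells with Il23r, and Tcrg-C1, a gamma constant region, in 4 and 3. Zbtb16 had 81 and 41 UMIs over all members (0.621, 0.416 to 0.915) and 65 and 10 over low-myeloid cells (0.142, 0.0649 to 0.277), where it was called lower. Of those 65 control UMIs, 24 and 23 lay in 2 cells. The DPCP cells with 15 and 8 Il23r UMIs, which the subset left out, held 21 and 5 Zbtb16 UMIs.

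Type 1 genes gave no single direction. Of 8 measured genes 2, Il12rb2 and Ccl5, were higher and 1 was lower, Cxcr3, the receptor for interferon-induced chemokines, with 69 and 28 UMIs (0.498, 0.309 to 0.783). Tbx21 (T-bet), the factor of type 1 T cells, had 47 and 41 UMIs (1.07, 0.687 to 1.66), and Ifng, its main cytokine, 24 and 15, too few to be measured. In the type 2 list 2 of 5 genes were lower, Pparg with 70 and 3 UMIs and Cd200r1 with 96 and 29, and none of 2 in low-myeloid cells. Gata3, the type 2 factor, had 138 and 94 UMIs (0.836, 0.636 to 1.09).

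Naive and central memory genes included Satb1, a chromatin organiser of T cells, which had 115 UMIs in 16 control members and 309 in 28 DPCP members (3.30, 2.65 to 4.12), and 2.36 in low-myeloid cells. Ccr7, the lymph node homing receptor, had 24 and 59 UMIs (3.02), but 23 and 16 in low-myeloid cells (0.641, 0.316 to 1.27), where its direction turned. These were the 2 called of 10. Lef1, a factor of naive T cells, had 77 and 104 UMIs (1.66), and Il7r, the interleukin-7 receptor, 237 and 176 (0.911).

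Of 13 proliferation genes 5 were higher and none lower: Mcm2, Mcm3, Mcm5 and Mcm6, subunits of the replication helicase, and Ube2c, a mitotic enzyme. Mcm6 had 17 and 60 UMIs (4.33, 2.49 to 7.92), Mcm5 16 and 48 (3.68) and Mcm2 11 and 40 (4.46). In low-myeloid cells 1 of 8 was called, Mcm6 at 2.99. Mki67, expressed through the cell cycle, had 80 and 105 UMIs (1.61, 1.19 to 2.18). It reached 3 UMIs in 4 control and 9 DPCP members, and 5 of those 9 and none of the 4 also held Gzmb. In Foxp3 cells 5 of 10 proliferation genes were higher, beside 158 of 2091 among all genes measured there. Gamma-delta cells had none of 10 higher and 1 lower.

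The type I interferon response list had the lowest median, and its values depended on the cells counted. Over all members 9 of 15 measured genes were called lower and none higher, with a median log2 ratio of -1.23, but in low-myeloid cells 4 genes could be measured, 1 was lower and the median was -0.24. The exception was Ifi27l2a, an interferon-induced gene, with 1320 UMIs in 50 control members and 244 in 33 DPCP members (0.227, 0.197 to 0.260), and 304 and 111 in low-myeloid cells (0.336, 0.268 to 0.419). Its level in all other kept cells was also lower, from 1840 to 509 CPM. Isg15, a ubiquitin-like protein, had 90 and 19 UMIs (0.259), but 3 and 14 in low-myeloid cells (4.30, 1.20 to 23.3), a change of direction. Irf7, a factor that amplifies the response, had 69 and 11 UMIs over all members and 7 and 5 in low-myeloid cells. Bst2 (tetherin) had 132 and 30 UMIs (0.279) and 35 and 14 in low-myeloid cells (0.368, 0.183 to 0.702), below the minimum of 50 UMIs.

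Of the 9 lower interferon genes 8 had a promoter window and 6 of these held the interferon response motif in any window, beside 3.44% of all windows. The genes come from a list chosen as interferon response genes, so this count describes that choice and not their lower level. The 1 gene of the list called lower in low-myeloid cells had no window. The Bst2 window is shown for its 2 overlapping matches, in capitals, from the same RefSeq table and read on the gene's strand.
Bst2 (chr8:71537423-71537722, minus strand): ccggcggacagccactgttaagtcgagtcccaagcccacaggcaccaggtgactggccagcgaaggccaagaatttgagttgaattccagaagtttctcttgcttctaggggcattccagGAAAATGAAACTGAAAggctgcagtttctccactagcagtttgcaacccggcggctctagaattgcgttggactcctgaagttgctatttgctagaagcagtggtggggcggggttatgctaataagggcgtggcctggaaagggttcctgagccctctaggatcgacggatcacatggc

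**Figure D5:**
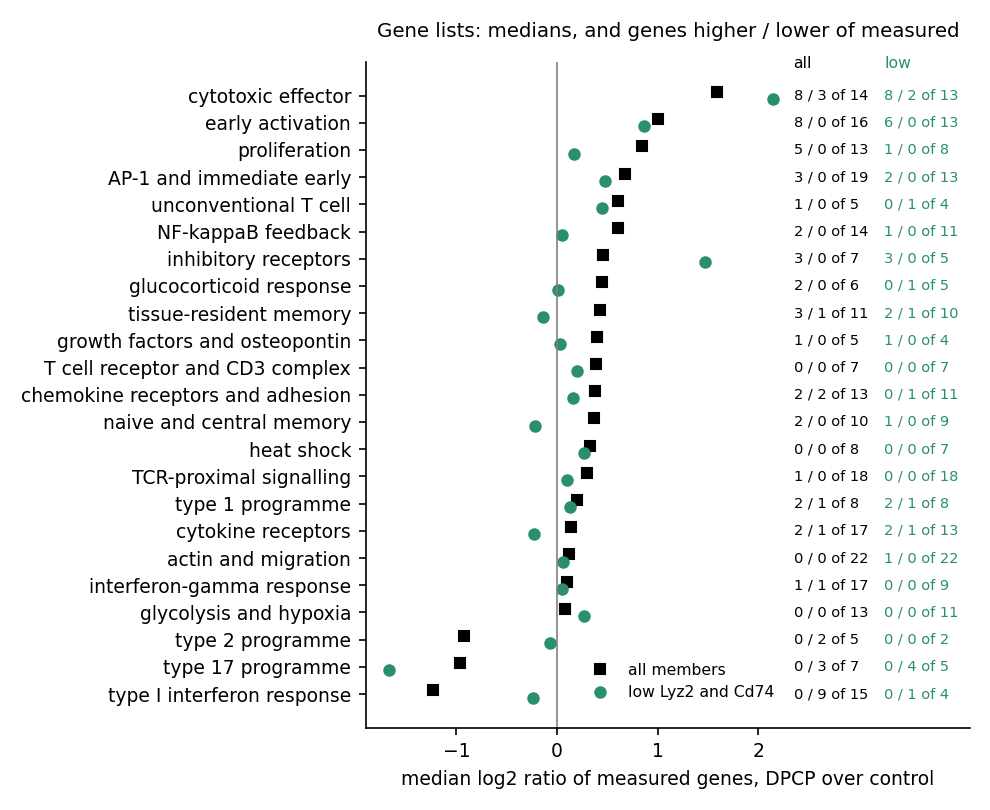
Median log2 ratio of CPM, DPCP over control (x axis), of the measured genes of each list, over all members (black squares) and low-myeloid cells (green circles), with the number of genes called higher and lower of those measured at the right. Cytotoxic effector and early activation genes lie to the right in both sets of cells, type 17 genes to the left in both, and the type I interferon list lies at -1.23 and -0.24.

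By the same rule, the genes with the highest and lowest ratios whose level in members stayed below that of the other kept cells were C3, Gngt2, Mfge8 and Ier3 on the higher side and Upb1, Thsd4, Fcrls and Clec4b1 on the lower. C3, a complement component, had 5 and 45 UMIs in members, and 21.9 and 157 CPM in the other cells. Mfge8, a bridging protein for apoptotic cells, had 11 and 87 UMIs, 74 of the 87 in 1 cell, and 9 and 5 in low-myeloid cells (0.512, 0.135 to 1.70), where the ratio was on the other side of 1. Gngt2, a G protein subunit, had 12 and 97 UMIs over all members and 6 and 9 in low-myeloid cells (1.38, 0.439 to 4.72). Fcrls, a receptor of macrophages, had 225 and 6 UMIs over all members (0.0327, 0.0119 to 0.0724) and 7 and 5 in low-myeloid cells, with 689 and 82.2 CPM in the other cells. Clec4b1 had 8 and 1 UMIs in low-myeloid cells (0.115, 0.00259 to 0.858), with an interval that excluded 1. Upb1 had 4 and 0 UMIs there and Thsd4 4 and 1, with intervals that held 1. Ier3 and Clec4b1 were below the UMI minimum in low-myeloid cells, so neither was called there. These levels moved the same way in the other cells of the skin, and the part of their RNA in the result was not tested.

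Cytokine receptors had 2 of 17 genes higher and 1 lower, in low-myeloid cells 2 and 1 of 13. Il21r, the interleukin-21 receptor, was higher with 27 and 73 UMIs (3.32, 2.11 to 5.37). Tgfbr1, a chain of the TGF-beta receptor, was lower with 132 and 53 UMIs (0.493, 0.351 to 0.683), of which 52 of the 132 lay in 1 cell. Chemokine receptors and adhesion genes had 2 of 13 higher and 2 lower, but 0 and 1 of 11 in low-myeloid cells, where Cxcr3 was the lower gene. Ccr2, a chemokine receptor of monocytes and of some T cells, had 575 and 215 UMIs over all members (0.459) but 65 and 87 in low-myeloid cells (1.23, 0.883 to 1.73). Cxcr4 had 28 and 48 UMIs (2.10) but 21 and 22 in low-myeloid cells (0.965).

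Immediate early genes had 3 of 19 higher and none lower, and in low-myeloid cells 2 of 13, Zfp36 and Egr1. NF-kappaB feedback genes had 2 of 14 higher, Bcl3 with 19 and 61 UMIs (3.94, 2.32 to 6.98) and Nfkb2 with 23 and 40 (2.13, 1.25 to 3.73). In low-myeloid cells 1 of 11 was called, Nfkbiz, while Bcl3 with 5 and 24 UMIs and Nfkb2 with 12 and 18 were below the minimum. Fos, a subunit of AP-1, had 87 and 169 UMIs (2.38, 1.83 to 3.12), but 1.57 in low-myeloid cells, and its level in other kept cells was 242 and 502 CPM. Among glucocorticoid response genes 2 of 6 were higher, Cxcr4 and Tsc22d3, the latter with 57 and 114 UMIs (2.45) and 1.67 in low-myeloid cells, where none of 5 was higher and Zbtb16 was lower. The interferon-gamma response gave 1 higher and 1 lower of 17, Irf8 with 18 and 62 UMIs (4.23) and Irgm1 with 51 and 17 (0.409), and none of 9 in low-myeloid cells. In the unconventional T cell list 1 of 5 was higher, Slamf1, a lymphocyte adhesion receptor, with 38 and 67 UMIs (2.16, 1.43 to 3.31), and 1.68 in low-myeloid cells, where Zbtb16 was the only gene of 4 called. Among growth factors 1 of 5 was higher, Csf1, the macrophage growth factor, with 21 and 46 UMIs (2.69, 1.57 to 4.74), 22 of the 46 in 1 cell, and 2.70 in low-myeloid cells. None of 8 heat shock genes, 13 glycolysis genes or 22 actin and migration genes was called over all members.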

How the data were processed

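The deposited matrix holds raw UMI counts of 32285 genes and 12 tags in each barcode, made by the authors with Cell Ranger 7.0.0 per the file headers. The submitters' processing notes name Cell Ranger 6.1.1, Seurat 4.0.1 and the mm10 build. The counts were used as deposited, unnormalized. The condition of a barcode was taken from its suffix through the deposited aggregation and tag tables. Counts were summed over cells and given as CPM, scaled to the UMI total of those cells. Cells are not replicates, so there is no test: levels have exact Poisson intervals, ratios exact conditional binomial intervals and shares exact Clopper-Pearson intervals, which are too narrow where few cells hold the UMIs. A condition at 0 was set to 3 counts. No doublet caller was run, and the low-myeloid subset and alternatives on marker UMIs and cell size stand in its place. The interval code was tested on simulated data.

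The members and the 23 gene lists (337 symbols, of which Aldoa, Mx1 and Znf683 had no match) were chosen with earlier results of these data known. The ranked genes had at least 50 UMIs in sum, at least 20 CPM and 10 cells in the higher condition, a ratio past 2-fold with an interval without 1, and a level not below that of the other kept cells there. Other named genes beyond the lists' examples were chosen after their values were seen. Alternatives changed the limits on genes, mitochondrial and S100 UMIs, the T cell evidence, the tag purity, the scaling (edgeR 4.0.16 TMM factors in R 4.3.3), the UMI minimum, the weight of cells and the thinning. Python 3.11.15, numpy 2.4.6, scipy 1.17.1 and pandas 2.3.3 were used. Gene coordinates come from GENCODE M21. Some genes are not reported here.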

Additional observations from a re-analysis of the deposited data

Results flagged for a closer look

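The tags themselves, which served only to assign cells, carried a signal that differed between conditions. Of the UMIs of both tags in DPCP members, 24.6% came from the control tag, while 3.83% of those in control members came from the DPCP tag. In all kept cells the same shares were 14.3% and 2.14%. A DPCP member held a median of 457 UMIs of the control tag and a control member a median of 75.5 UMIs of the DPCP tag. In 10 DPCP members and no control member the own tag made up under 60% of these UMIs. The cause was not tested.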

How the results depend on the processing

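No paired analysis was possible because each condition had 1 tagged sample, and no replicate could be left out. TMM factors of 0.991 and 1.01 shifted all log2 ratios by -0.03 and left 42.4% of calls higher beside 44.6%, and 45.3% without mitochondrial and ribosomal protein genes. Of 61 genes followed over the alternatives, 48 turned under none, and 20 gene and setting pairs had too few UMIs for a value. The low-myeloid split and the removal of the cell richest in each gene were chosen after seeing the data.

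An S100 limit of 5 UMIs (25 control and 14 DPCP cells) gave shares of 0.503% and 0.185%, 56 genes higher and 38 lower, and 3 cytotoxic, 0 early activation, 1 type 17 and 1 interferon calls, and turned Prdm1 (log2 -1.95), Ifi204 (2.11), Scmh1 (0.96), Ccr2 (0.72), Mcm6 (-0.11) and Csf1 (-2.63). No S100 limit gave a DPCP share of 0.870%. At least 2 Trac and 2 CD3 UMIs gave a control share of 0.845%, 153 genes lower and 5 cytotoxic calls. Without cells with 3 or more UMIs of myeloid or B cell genes (19 and 13 cells left), shares were 0.382% and 0.171%, Cd8 cells 53.8% of DPCP members, and 54 genes were higher and 42 lower. The lists then had 4 cytotoxic, 3 early activation, 1 type 17 and 1 interferon calls, and Ccr7 (-0.67), Slamf1 (-0.021), Ccr2 (0.33) and Cxcr4 (-0.99) turned.

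Cells with at least 80% of their own tag (64 and 15 cells) gave a DPCP share of 0.317% and 1 early activation call, and turned Slamf1 (-0.30). Low-myeloid cells gave a control share of 0.845%, 101 genes higher, 73 lower and 1 interferon call, and turned Isg15 (2.10), Phlda1 (0.52), Ccr7 (-0.64), Ccr2 (0.30) and Cxcr4 (-0.052). Cd4 cells alone (14 and 19 cells) were under the minimum of 20 cells per condition set for a comparison within a coreceptor class. They gave 52 genes lower, 1 cytotoxic, 3 early activation, 1 type 17 and 1 interferon calls. They turned Ccl5 (at most -2.06), Ifi211 (0.35), Isg15 (0.57), Phlda1 (0.94) and Csf1 (-1.97). The Ccl5 value is a bound from the floor of 3 counts, since no DPCP Cd4 cell held a Ccl5 UMI. The causes were not tested.

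A minimum of 10 UMIs gave 527 genes higher and 591 lower, 6 type 17 and 17 interferon calls, and a minimum of 200 gave 26 and 43, with 4 cytotoxic, 0 early activation, 1 type 17 and 1 interferon calls, since other genes were measured. Averaging over cells gave 5 type 17 calls by fold alone. Without the richest cell 96 genes were higher, with 4 early activation and 1 type 17 calls. With 2 coreceptor UMIs, Cd4 cells were 25.5% of DPCP members. Thinning to 2000 UMIs gave 14.3% Cd4 cells in control and 13.0% in DPCP, against 3.13% and 6.38% at 1000, which turned the direction, and Itgae in 42.9% of control members against 26.6%. Each thinned share comes from a single random draw, and the spread between draws was not measured.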
